A study of Mus musculus with 4 samples.

Results

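Interferon-gamma (IFNγ)-induced GTPases were examined as 10 genes, Iigp1, Irgm1, Irgm2, Igtp, Gbp2, Gbp3, Gbp5, Gbp7, Gbp8 and Tgtp1, among 54146 genes listed in a raw count table. The genes were taken by symbol from the immunity-related GTPase (IRG) and guanylate-binding protein (GBP) families. They were chosen by a reading of the same propranolol against control contrast, so their own fold changes, and how many passed the limits used for the whole table, are given as a description.

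The libraries came from tumor associated macrophages (TAMs) sorted by FACS from MCA205 tumors, a mouse fibrosarcoma line grown under the skin of female C57BL/6 mice aged 8 to 16 weeks. Sorted cells were live, CD11b+ and F4/80+, after enrichment of CD45+ cells on magnetic beads. The 2 control libraries (labelled vehicle) came from mice without propranolol, and the 2 propranolol libraries from mice given propranolol, a nonselective beta-adrenergic receptor blocker, at 0.5 g/L in the drinking water from the day of inoculation. Both groups carried the same tumor, no transgene was named, and neither the number of mice behind a library nor any pooling is given in the sources used here. The total counts were 13798249 and 23018142 in control 1 and 2, and 39818103 and 16424081 in propranolol 1 and 2.

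IFNγ, made mainly by T cells and NK cells, binds a receptor on macrophages that activates the kinases JAK1 and JAK2. The signal acts on target genes through the GAS element and, by way of the transcription factor IRF1, through the ISRE element. Both elements drive IRG and GBP genes, whose protein products coat and disrupt the vacuoles of intracellular microbes. The regulatory IRG proteins (IRGM1, IRGM2 and IGTP, also called IRGM3) sit on the cell's own membranes and hold the effector IRG proteins (IIGP1, also called Irga6, and TGTP, also called Irgb6) inactive there. GBPs act on the same vacuoles and on cytosolic bacteria, where they help to activate inflammasomes.

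The promoters of the genes were searched for these elements. RefSeq start sites on GRCm38.p6 were matched for 8 of the 10 genes, all but Iigp1 and Gbp8, with 9 promoters in all. Some lay far from the gene start in GENCODE, by 15359 bases for Irgm2, 2956 for Gbp5 and 1926 for Tgtp1. The promoters of these genes therefore lie inside the gene spans given below. The 250 bases before each start were searched on both strands for GAS as TTCNNNGAA and for an ISRE core as GAAANNGAAA. An ISRE core was found for all 8 matched genes (in 1 of the 2 promoters of Gbp3, the one shown) and a GAS for 5 of them, against 2.98% and 7.02% of 32851 mouse promoters of the same length. The last 120 bases before the start are printed 5′ to 3′ to show how the motifs lie, with the motifs in capitals (an ISRE core on the opposite strand is printed as its reverse complement).
Irgm2 (chr11:58214857-58214976, plus strand): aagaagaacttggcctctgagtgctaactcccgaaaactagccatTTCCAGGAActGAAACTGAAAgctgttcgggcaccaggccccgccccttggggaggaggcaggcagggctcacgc
Igtp (chr11:58199436-58199555, plus strand): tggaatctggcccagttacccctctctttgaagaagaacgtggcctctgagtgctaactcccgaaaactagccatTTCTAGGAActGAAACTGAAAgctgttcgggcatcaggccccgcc
Tgtp1 (chr11:48992247-48992366, minus strand): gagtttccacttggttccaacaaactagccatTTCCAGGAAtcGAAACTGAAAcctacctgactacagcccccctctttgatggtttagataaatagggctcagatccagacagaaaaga
Irgm1 (chr11:48871421-48871540, minus strand): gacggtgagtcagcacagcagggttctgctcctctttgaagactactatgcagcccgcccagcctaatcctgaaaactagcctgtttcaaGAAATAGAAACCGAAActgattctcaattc
Gbp2 (chr3:142620543-142620662, plus strand): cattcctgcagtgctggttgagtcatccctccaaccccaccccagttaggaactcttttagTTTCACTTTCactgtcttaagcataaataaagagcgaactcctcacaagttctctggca
Gbp3 (chr3:142559924-142560043, plus strand): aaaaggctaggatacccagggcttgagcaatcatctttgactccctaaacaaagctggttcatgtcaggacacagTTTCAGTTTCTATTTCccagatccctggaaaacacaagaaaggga
Gbp7 (chr3:142530216-142530335, plus strand): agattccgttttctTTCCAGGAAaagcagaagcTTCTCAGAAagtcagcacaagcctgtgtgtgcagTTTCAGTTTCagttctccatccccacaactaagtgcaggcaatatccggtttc
Gbp5 (chr3:142496814-142496933, plus strand): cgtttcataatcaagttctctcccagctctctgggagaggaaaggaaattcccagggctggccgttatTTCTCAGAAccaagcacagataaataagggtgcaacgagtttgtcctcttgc

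In Irgm2, Igtp and Tgtp1 the GAS was followed after 2 bases by the ISRE core, written together as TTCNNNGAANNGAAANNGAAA. This arrangement, looked for after the first promoters had been read, was present in 5 of the 32851 promoters (0.0152%), those of Irgm2, Igtp, Tgtp1 and of 2 further IRG genes, Tgtp2 and Gm12185. Promoters of duplicated genes share ancestry, and Irgm2 and Igtp are alike over most of the stretch shown, so these are not independent occurrences. Irgm1 instead held a pair of overlapping ISRE cores, and so did Gbp3. In Gbp5 the ISRE core (-165 to -156, counted back from the start) and another GAS (-245 to -237) lie before the printed stretch. The GAS and ISRE core did not overlap each other in any of these promoters, and a match is a string of letters and not a measured binding site.

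The levels of the regulatory IRG genes overlapped between the groups. Irgm1 (chromosome 11, 48861968 to 48871683 on GRCm38) was at 106 and 109 CPM (counts scaled to the library size, here after TMM factors) in control 1 and 2, and at 116 and 95.0 CPM in propranolol 1 and 2. Irgm2 (chromosome 11, 58199618 to 58222782) was at 56.5 and 65.8 CPM in the control and at 57.0 and 45.8 CPM in the propranolol libraries. Igtp (chromosome 11, 58199556 to 58207591) was at 87.6 and 90.6 CPM in the control and at 92.8 and 64.4 CPM in the propranolol libraries. For all 3 genes the groups overlapped, and propranolol 2 was the lowest of the 4 libraries. The log2 fold changes (propranolol over control, with the standard error of the edgeR fit) were -0.03 ± 0.12 for Irgm1, -0.25 ± 0.14 for Irgm2 and -0.17 ± 0.15 for Igtp. Without propranolol 2 they were 0.14 for Irgm1, -0.07 for Irgm2 and 0.09 for Igtp. With another library left out they reached as low as -0.18 for Irgm1, -0.42 for Irgm2 and -0.47 for Igtp. The annotated exons of Igtp and Irgm2 overlap, over 8.01% of the exon bases of Igtp and 4.39% of those of Irgm2, and reads there cannot be assigned to one of them.

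The effector IRG gene Iigp1 was far lower in both propranolol libraries. Iigp1 (chromosome 18, 60376027 to 60392634) was at 176 and 167 CPM in the control libraries and at 54.6 and 40.2 CPM in the propranolol libraries (2606, 4183, 1987 and 614 counts). The groups were well apart, the lowest control library holding more than the highest propranolol library by a wide margin. Its log2 fold change was -1.84 ± 0.14, a 3.58-fold lower level, and between -2.09 and -1.62 when single libraries were left out. The other effector, Tgtp1 (chromosome 11, 48985327 to 48994172), was at 1.28 and 2.83 CPM in the control and at 1.07 and 0.589 CPM in the propranolol libraries. These levels rest on 19, 71, 39 and 9 counts, control 2 stands above the other 3 libraries, and the log2 fold change of -1.27 ± 0.55 moved between -1.81 and -0.56 without single libraries. Of all 75-base stretches of Tgtp1, 87.7% also occur in other genes, and 84.8% of all its stretches occur in its near-copy Tgtp2, so reads of the pair are hard to assign and the value of Tgtp1 is uncertain.

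The 5 GBP genes lay lower in both propranolol libraries than in both control libraries, by less than Iigp1. Gbp2, which is prenylated and carried to microbial vacuoles (chromosome 3, 142620602 to 142638008), was at 340 and 325 CPM in the control and at 208 and 165 CPM in the propranolol libraries. Gbp7 (chromosome 3, 142530342 to 142550149) was at 183 and 167 CPM in the control and at 105 and 101 CPM in the propranolol libraries. Gbp5, which has been linked to inflammasome activation (chromosome 3, 142493978 to 142522344), was at 114 and 117 CPM in the control and at 72.6 and 74.2 CPM in the propranolol libraries. In these 3 genes the gap between the groups was wider than the spread within either group. Gbp3 (chromosome 3, 142560026 to 142573209) was at 149 and 137 CPM in the control and at 106 and 99.6 CPM in the propranolol libraries. Gbp8 (chromosome 5, 105014150 to 105139540) was at 41.5 and 53.8 CPM in the control and at 28.9 and 36.7 CPM in the propranolol libraries. Neither gene had overlapping groups, although control 1 and propranolol 2 lay close together for Gbp8. The log2 fold changes were -0.83 ± 0.12 for Gbp2, -0.76 ± 0.10 for Gbp7, -0.65 ± 0.10 for Gbp5, -0.55 ± 0.16 for Gbp8 and -0.48 ± 0.10 for Gbp3. That of Gbp8 moved between -0.70 and -0.33 without single libraries. Exons of other annotated genes cover 11.3% of the exon bases of Gbp7 (Gm43802) and 1.77% of those of Gbp8 (Gbp4 and Gbp9).

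**Figure D1:**
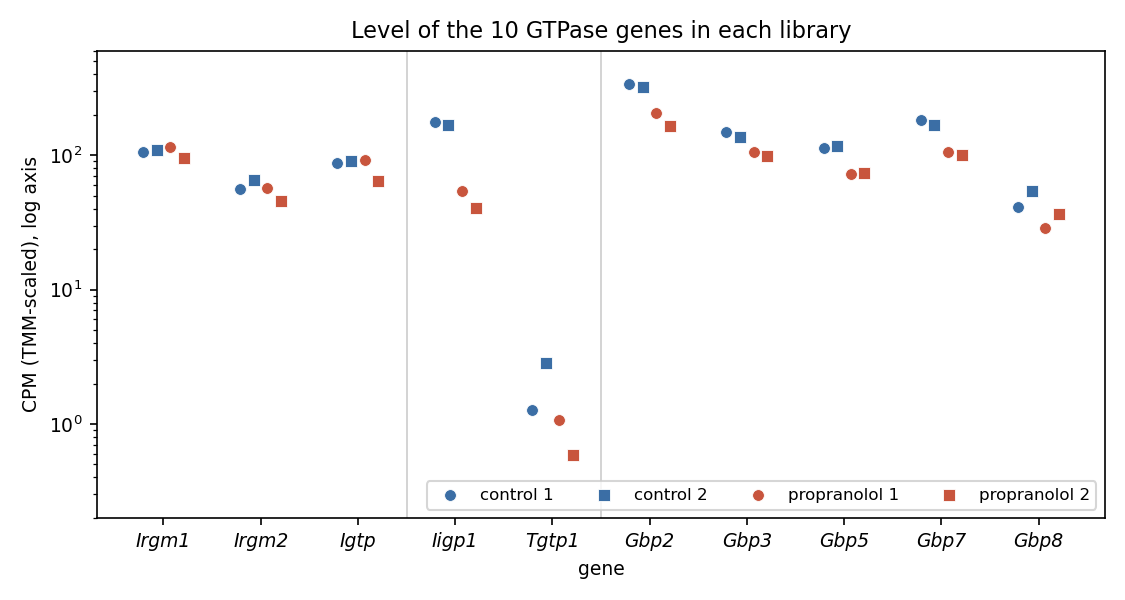
The CPM of each of the 10 genes (log axis) is plotted for the 4 libraries, blue for control and red for propranolol, with circles for replicate 1 and squares for replicate 2. The groups mix for Irgm1, Irgm2 and Igtp and are apart for the other 7 genes, most widely for Iigp1 at 176 and 167 against 54.6 and 40.2 CPM.

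In 7 of the 10 genes both propranolol libraries lay below both control libraries, as they did in 36.9% of 14688 tested genes. Of the 10 genes, 4 (Iigp1, Gbp2, Gbp5 and Gbp7) passed an adjusted p of 0.05 and a 1.5-fold change in edgeR's quasi-likelihood test, all lower, and 15.6% of tested genes were lower by the same limits. The median log2 fold change was -0.60 for the 10 genes and -0.02 for all tested genes. Since the genes were selected on this contrast, nothing is read from these counts. Over the whole table, 1798 genes were higher and 2286 lower, and with library totals in place of TMM factors 609 were higher and 3497 lower. That scaling moved the median of all tested genes to -0.25 and that of the 10 genes to -0.83, with all 10 below 0.

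The order of the genes by level was compared per exon length, as TPM (counts divided by exon length and scaled to the same sum in every library), within a group. In the control libraries Gbp2 was the most abundant, at 438 ± 4.62 TPM (SD, n = 2), followed by Igtp at 146 ± 6.48 and Gbp3 at 145 ± 5.56 TPM, which did not differ beyond their spread. Gbp7 (104 ± 4.52 TPM) and Iigp1 (97.6 ± 1.63 TPM) came next. Irgm1 (61.5 ± 2.20 TPM), Gbp5 (57.6 ± 2.22 TPM), Irgm2 (55.1 ± 7.07 TPM) and Gbp8 (46.0 ± 9.33 TPM) lay close together, each overlapping or nearly touching its neighbour, and Tgtp1 was last at 2.14 ± 1.18 TPM. In the propranolol libraries Gbp2 (208 ± 28.7 TPM), Igtp (109 ± 24.9 TPM) and Gbp3 (88.5 ± 1.29 TPM) again led, Gbp7 (51.8 ± 0.0926 TPM) did not differ from Irgm1 beyond the spread, and Tgtp1 was last at 0.726 ± 0.280 TPM. Iigp1, at 22.9 ± 4.29 TPM, had moved below Irgm1 (51.0 ± 5.73 TPM), Irgm2 (39.2 ± 4.94 TPM), Gbp5 (31.1 ± 1.34 TPM) and Gbp8 (26.9 ± 5.30 TPM), of which Gbp8 did not differ from it beyond the spread.

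Counts set against other counts of the same library do not depend on how libraries were scaled. Iigp1 counts were 70.1% and 62.9% of the summed counts of Irgm1, Irgm2 and Igtp in control 1 and 2, and 20.6% and 19.6% of them in propranolol 1 and 2. Gbp2 counts were 135% and 123% of that sum in the control and 78.4% and 80.2% of it in the propranolol libraries. Both genes kept their groups apart, with the propranolol libraries close to each other. Gbp7 stood at 73.1% and 63.0% in the control and at 39.6% and 49.4% in the propranolol libraries. Gbp5 stood at 45.4% and 44.0% in the control and at 27.3% and 36.2% in the propranolol libraries. Gbp3 stood at 59.5% and 51.7% in the control and at 39.8% and 48.5% in the propranolol libraries. These 3 genes remained apart by smaller gaps, whereas Gbp8 overlapped, at 16.6% and 20.3% in the control and at 10.9% and 17.9% in the propranolol libraries. The 3 IRGM genes were taken as the reference after their levels had been seen. The ratios were not corrected for the GC content of the transcripts, which the fold changes followed, as described below. It was 45.6% to 49.5% in the 3 IRGM genes, but 39.3% in Iigp1 and 41.7% in Gbp7.

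**Figure D2:**
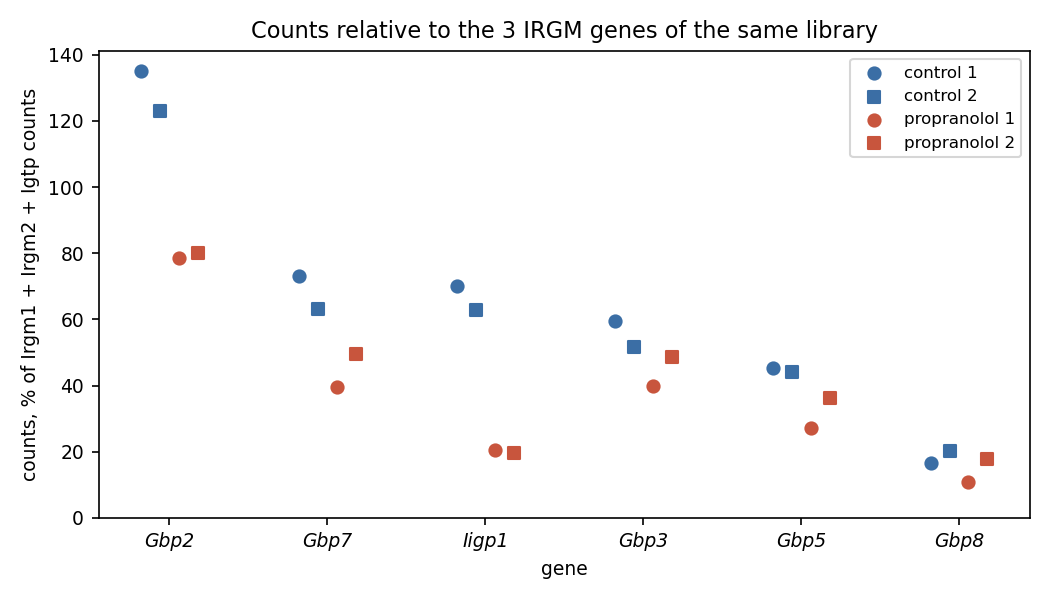
Counts of 6 genes are plotted as a percentage of the summed Irgm1, Irgm2 and Igtp counts of the same library (blue control, red propranolol, circles replicate 1, squares replicate 2). Iigp1 drops from 70.1% and 62.9% to 20.6% and 19.6%, and only Gbp8 has overlapping groups. The ratios are not corrected for GC content.

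The fold change of a gene in these libraries followed the GC content of its transcript, with a Spearman correlation of 0.577 across 14681 tested genes, which are not independent. When tested genes were ranked by GC content and cut into 10 equal groups, the median was -0.94 in the lowest group (30.8% to 41.2% GC) and -0.01 in the fifth (47.7% to 49.6% GC). The 10 genes ranged from 39.3% GC (Iigp1) to 49.5% (Igtp), with a median of 45.8%, below the 49.6% of all tested genes. Each gene was therefore set beside the 500 tested genes closest to it in GC content.

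Judged this way, the 10 genes separated. Iigp1 lay 0.96 below the median of its GC neighbours (-0.88), and 7.80% of these neighbours had a lower fold change. Gbp5 lay 0.69 and Gbp2 0.66 below their neighbours' medians of 0.04 and -0.17, with 14% and 12.4% of the neighbours lower. Tgtp1, on few counts, lay 0.79 below. Gbp7 (-0.76 against -0.64) and Gbp8 (-0.55 against -0.47) were within 0.12 of their neighbours. Gbp3 lay 0.24 and Igtp 0.22 below, Irgm2 differed by 0.03, and Irgm1 lay 0.20 above its neighbours. With the trend of each library on GC content removed before the fit, the log2 fold changes were -0.89 ± 0.12 for Iigp1, -0.79 ± 0.54 for Tgtp1, -0.59 ± 0.09 for Gbp5 and -0.58 ± 0.11 for Gbp2. The remaining values were -0.17 ± 0.09 for Gbp3, -0.14 ± 0.15 for Igtp, -0.08 ± 0.09 for Gbp7, -0.05 ± 0.17 for Gbp8, 0.03 ± 0.13 for Irgm2 and 0.30 ± 0.11 for Irgm1. The median of the 10 genes was -0.15, that of all tested genes 0.09, and 4.98% of tested genes were called lower against 2 of the 10, Iigp1 and Gbp5. Gbp2 missed the 1.5-fold limit narrowly.

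**Figure D3:**
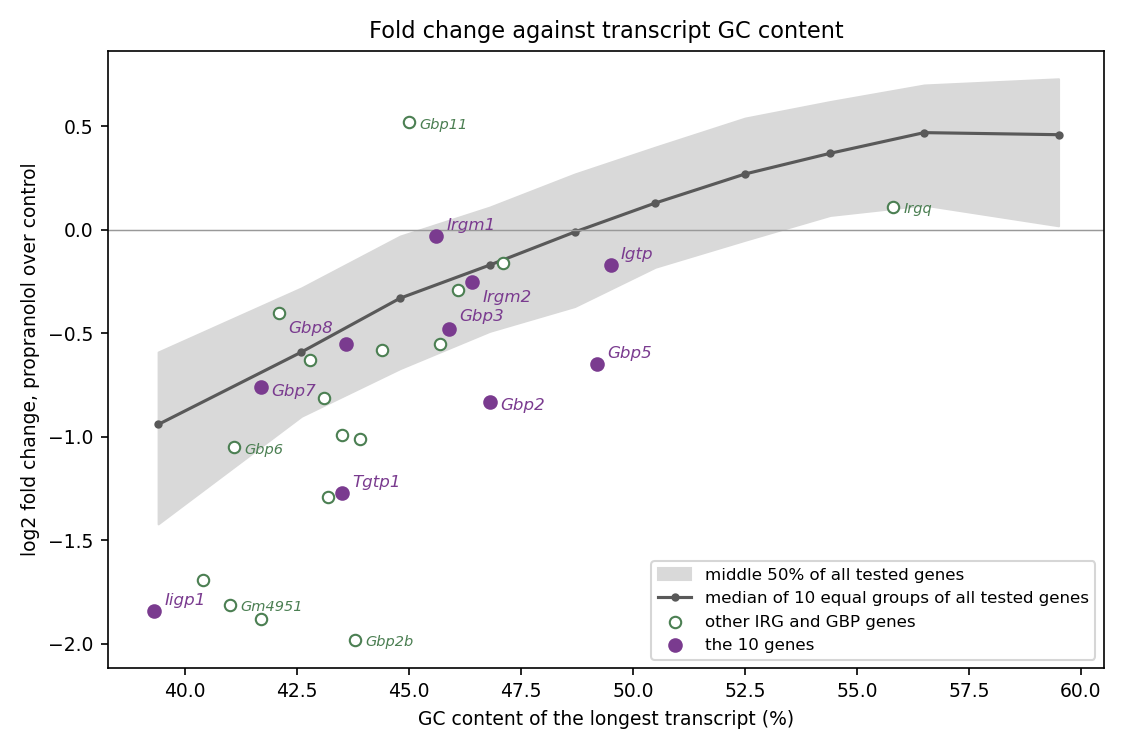
Log2 fold change (propranolol over control) is plotted against transcript GC content, with the median (line) and middle 50% (grey) of 10 equal groups of all tested genes by GC content, the 10 genes as filled and the other IRG and GBP genes as open circles. Gbp7, Gbp8, Gbp3 and the 3 IRGM genes lie in the grey band, while Iigp1, Gbp2, Gbp5, Tgtp1 and Gbp2b (-1.98) lie below it.

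The rest of the 2 families was measured alongside. Of 12 other IRG genes 11 were tested, and 6 were lower by edgeR with Benjamini-Hochberg adjustment, against 15.6% of all tested genes. After the GC correction 3 were lower, against 4.98%. The median over the 11 was -0.99. The IRG genes beside Iigp1, Gm4951, Gm4841 and F830016B08Rik, lie with it between 60212080 and 60392634 on chromosome 18. Gm4951 was at 37.0 and 32.1 CPM in the control and at 10.5 and 9.04 CPM in the propranolol libraries (log2 fold change -1.81 ± 0.16, adjusted p = 0.000103). F830016B08Rik was at 9.71 and 11.4 against 3.55 and 2.95 CPM (-1.69 ± 0.25, adjusted p = 0.000603). Gm4841, on 43, 63, 30 and 9 counts, was at 2.90 and 2.51 against 0.825 and 0.589 CPM (-1.88 ± 0.46, adjusted p = 0.00866). The 4 genes of this cluster thus spanned -1.88 to -1.69, and -1.22 to -0.88 after the GC correction, where Gm4841 no longer passed.

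The chromosome 11 IRG genes were spread more widely, from -1.29 to -0.03 over 11 tested genes. Tgtp2, the near-copy of Tgtp1, was at 25 and 24.2 CPM in the control and at 15.0 and 9.23 CPM in the propranolol libraries (-0.99 ± 0.21, adjusted p = 0.00402). 9930111J21Rik2 was at 36.8 and 33.8 against 13.2 and 15.8 CPM (-1.29 ± 0.15, adjusted p = 0.000204) and passed after the GC correction, at -0.75, while 9930111J21Rik1, with which it shares 44.1% of its 75-base stretches, was at 20.5 and 24.0 against 17.8 and 22.3 CPM (-0.16 ± 0.16, adjusted p = 0.454). Gm12185 was at 5.66 and 5.70 against 3.03 and 2.55 CPM (-1.01 ± 0.29, adjusted p = 0.0189), and did not pass without propranolol 2, at -0.88. Tgtp2 and Gm12185 did not pass after the GC correction, at -0.50 and -0.55.

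The remaining IRG genes did not pass both limits. Ifi47, also called Irgd, was at 105 and 102 CPM in the control and at 87.5 and 52.1 CPM in the propranolol libraries (-0.55 ± 0.19, adjusted p = 0.0406), and passed at -0.98 without propranolol 1. Gm5431 had a log2 fold change of -0.58 ± 0.18 (adjusted p = 0.0276), just inside the 1.5-fold limit, and passed at -0.70 without control 2 and at -0.62 without propranolol 1. Gm12250, also called Irgb10, was at -0.29 ± 0.14 (adjusted p = 0.124). Irgq, a diverged relative, was at 0.11 ± 0.13 (adjusted p = 0.532), and at -0.13 with library totals and -0.20 after the GC correction.

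Of 6 other GBP genes, all tested, 3 were lower, against 15.6% of all tested genes, and 1 after the GC correction, against 4.98%. The median over the 6 was -0.72. Gbp2b, the mouse Gbp1, was at 19.1 and 30.5 CPM in the control and at 7.04 and 5.44 CPM in the propranolol libraries (-1.98 ± 0.24, adjusted p = 0.000275). It remained lower after the GC correction, at -1.51. Gbp6 was at 22.9 and 22.4 against 11.8 and 9.89 CPM (-1.05 ± 0.16, adjusted p = 0.000834), and Gm43302, a gene model at the same place, shares 46.9% of its 75-base stretches. Gbp4 was at 81.4 and 103 against 64.2 and 54.7 CPM (-0.63 ± 0.14, adjusted p = 0.00462), and did not pass without control 2 (-0.43) or without propranolol 2 (-0.49). Gbp6 and Gbp4 did not pass after the GC correction, at -0.31 and -0.07. Gbp9 was at -0.40 ± 0.11 (adjusted p = 0.0143) and at 0.23 after the correction. Gbp10 (-0.81 ± 0.59, adjusted p = 0.296) and Gbp11 (0.52 ± 0.73, adjusted p = 0.596) had at most 23 counts in a library.

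**Figure D4:**
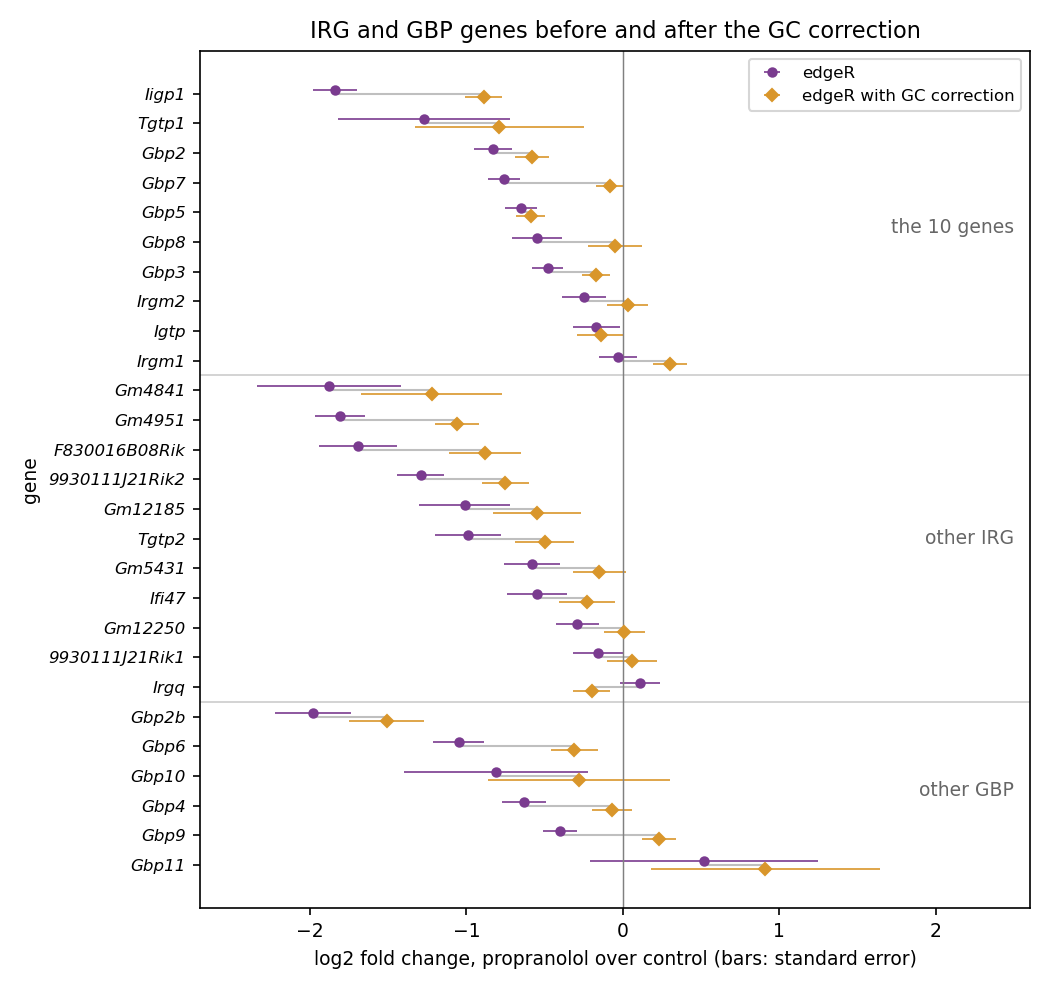
Log2 fold changes with standard errors are plotted for the 10 genes, 11 other IRG and 6 other GBP genes, as circles from edgeR and as diamonds after the GC correction. Most genes shift toward 0, Iigp1 from -1.84 to -0.89 and Gbp7 from -0.76 to -0.08, and Gbp2b from -1.98 to -1.51, while Gbp5 moves from -0.65 to -0.59.

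The very large inducible GTPases, another IFNγ-induced family, were lower in 3 of 4 tested genes, against 15.6% of all tested genes and 45% to 53.4% of their GC neighbours. Gm8995, the most abundant, was at 180 and 196 CPM in the control and at 97.2 and 90.5 CPM in the propranolol libraries (-1.0 ± 0.10, adjusted p = 0.000134). Gm1966 was at -0.96 ± 0.12 (adjusted p = 0.000264) and Gvin1, of whose 75-base stretches 98.3% occur elsewhere, at -1.12 ± 0.36 (adjusted p = 0.0306). Gvin1 did not pass without control 1 (-0.91) or without propranolol 2 (-0.94). Gm4070 was at -0.23 ± 0.27 (adjusted p = 0.511), and at 0.56 after the GC correction. Of its 75-base stretches 97.5% also occur in Gvin1, so reads of this pair are hard to assign and both values are uncertain. Gm8995 and Gm1966 are annotated as pseudogenes. The transcripts had 40.5% to 41.5% GC, and after the correction Gm8995, Gm1966 and Gvin1 were at -0.24, -0.25 and -0.32 and did not pass.

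The ligand of the pathway fell more than any other tested gene of the signalling list. Ifng was at 8.83 and 7.97 CPM in the control and at 2.67 and 1.05 CPM in the propranolol libraries (131, 200, 97 and 16 counts). The groups were apart, with a log2 fold change of -2.09 ± 0.38 (edgeR adjusted p = 0.00191), and of -1.59 after the GC correction, where it passed too. Its receptor chains did not pass both limits, with Ifngr1 at -0.20 ± 0.10 (adjusted p = 0.149) and Ifngr2 at -0.32 ± 0.10 (adjusted p = 0.0281). Of the kinases, Jak2 was lower (-0.69 ± 0.11, adjusted p = 0.00113), short of the fold limit without propranolol 2 (-0.55) and at -0.26 after the GC correction. Jak1 was at -0.08 ± 0.09 (adjusted p = 0.506).

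The interferon regulatory factors of the list did not pass both limits. Irf1, which binds the ISRE, was at 237 and 269 CPM in the control and at 311 and 296 CPM in the propranolol libraries (0.26 ± 0.10, adjusted p = 0.0621). Irf8 was at 0.30 ± 0.09 (adjusted p = 0.0241), Irf9 at 0.32 ± 0.10 (adjusted p = 0.0252) and Irf2 at 0.02 ± 0.11 (adjusted p = 0.911). Of the inhibitors, Socs1 and Socs3, which are themselves induced by cytokine signalling, were at 0.02 ± 0.14 (adjusted p = 0.925) and 0.17 ± 0.12 (adjusted p = 0.296). The phosphatase gene Ptpn2 was lower (-0.69 ± 0.17, adjusted p = 0.00816), but not past the limits without control 1 (-0.58) or propranolol 2 (-0.45), and was at 0.20 after the GC correction. Ptpn6 was at 0.35 ± 0.10 (adjusted p = 0.0182), Ptpn11 at 0.32 ± 0.10 (adjusted p = 0.0264) and Pias1 at -0.29 ± 0.11 (adjusted p = 0.0627). Usp18, a brake on type I interferon signalling, rose (0.72 ± 0.12, adjusted p = 0.00129). In all, 3 of 17 tested signalling genes were lower and 1 higher, against 15.6% lower and 12.2% higher of all tested genes, and the median was 0.02.

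Upstream of the ligand, 4 of 11 tested genes of IFNγ induction were lower, against 15.6% of all tested genes, all of them known from T cells and NK cells. The same count, 4 of 11, was lower after the GC correction, against 4.98%. Il18r1, a receptor chain for interleukin-18, was at 11.3 and 14.2 CPM in the control and at 3.82 and 2.29 CPM in the propranolol libraries (-2.01 ± 0.28, adjusted p = 0.000478). Il12rb2, a receptor chain for interleukin-12, was at -2.01 ± 0.34 (adjusted p = 0.00122) and Tbx21, which encodes T-bet, at -1.35 ± 0.29 (adjusted p = 0.00431). Stat4, which acts after interleukin-12, was at -1.27 ± 0.28 (adjusted p = 0.00466). The 3 most abundant genes of this list did not pass both limits. Il18bp, which neutralises interleukin-18, was at 0.17 ± 0.12 (adjusted p = 0.276) and Ebi3, a subunit of interleukin-27, at 0.44 ± 0.14 (adjusted p = 0.0252, passing at 0.63 without control 2). Il12rb1 was at 0.02 ± 0.17 (adjusted p = 0.941).

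Other IFNγ targets moved both ways. Of 35 tested genes 2 were lower and 6 higher, 22.9% in all against 27.8% of all tested genes, with a median of 0.16. Cxcl9, a ligand of CXCR3 and an IFNγ target, was at 550 and 551 CPM in the control and at 282 and 189 CPM in the propranolol libraries (-1.22 ± 0.16, adjusted p = 0.00034), and remained lower after the GC correction, at -0.70. B2m, the light chain of MHC class I, was at 2640 and 2460 against 1770 and 1440 CPM (-0.67 ± 0.11, adjusted p = 0.000985). It did not pass without control 1 (-0.56) or propranolol 2 (-0.50), and at 41.2% GC was at 0.06 after the correction. Higher were Upp1, a uridine phosphorylase gene (1.5 ± 0.13, adjusted p = 0.000103), Acod1, which makes itaconate (0.74 ± 0.12, adjusted p = 0.000956), and the immunoproteasome gene Psmb10 (0.72 ± 0.12, adjusted p = 0.000996). Psmb10 did not pass without propranolol 1 (0.57) or after the GC correction (0.40). The abundant MHC class II genes Cd74 (-0.02 ± 0.08, adjusted p = 0.866), H2-Ab1 (0.30 ± 0.09, adjusted p = 0.0192) and H2-Eb1 (-0.12 ± 0.10, adjusted p = 0.387) did not pass, with Cd74 at 9000 and 9570 CPM in the control and at 9410 and 8910 CPM in the propranolol libraries.

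Of 22 tested type I interferon genes, which share the ISRE, 6 were higher and 3 lower, against 12.2% and 15.6% of all tested genes, with a median of 0.24. Oasl1 (1.03 ± 0.10, adjusted p = 0.000126), Ifi27l2a (1.03 ± 0.11, adjusted p = 0.000177) and Isg15, a ubiquitin-like modifier (0.96 ± 0.10, adjusted p = 0.000172) rose most. Bst2, the most abundant, was at 328 and 341 CPM in the control and at 627 and 613 CPM in the propranolol libraries (0.89 ± 0.09, adjusted p = 0.000134), and Irf7 rose by 0.76 ± 0.09 (adjusted p = 0.000284), but was at 0.46 and inside the fold limit after the GC correction. Lower were Ifit2 (-1.03 ± 0.12, adjusted p = 0.000239), Ifi44 (-0.88 ± 0.15, adjusted p = 0.00149) and Ifi204 (-0.80 ± 0.13, adjusted p = 0.00101). These 3 transcripts had 40.4% to 42.0% GC, and after the correction they were at -0.38, -0.05 and -0.01 and did not pass, whereas 6 genes of the list were higher, against 7.63% of all tested genes.

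**Figure D5:**
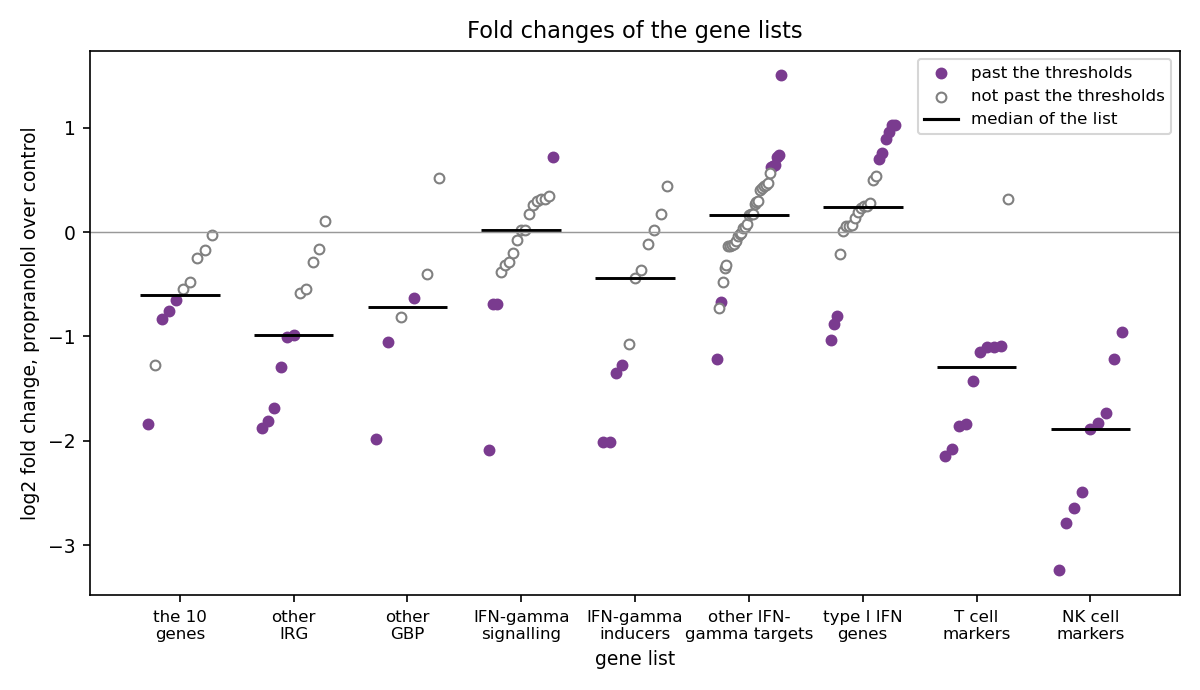
Each circle is the log2 fold change (propranolol over control) of 1 tested gene, filled if past an adjusted p of 0.05 and 1.5-fold, with a bar at the median of each list. The medians of the 10 genes, the other IRG and the other GBP genes are -0.60, -0.99 and -0.72, those of IFNγ signalling, other IFNγ targets and type I interferon genes 0.02, 0.16 and 0.24, and those of the T cell and NK cell markers -1.29 and -1.89.

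Marker transcripts of other cell types moved both ways, and most of those of T cells and NK cells were lower. The summed level of 10 T cell markers came to 273 and 319 CPM in control and to 143 and 77.5 CPM in propranolol libraries, with 9 of 10, all but Cd4, lower (8 after the GC correction), against 15.6% of all tested genes (4.98% after it). Cd8a, the most abundant in 3 of the 4 libraries, was at 71.0 and 86.8 against 29.4 and 13.4 CPM. The sum of 9 NK cell markers was 134 and 137 against 50.7 and 24.6 CPM, with all 9 lower (7 after the GC correction) and Prf1 the most abundant at 43.6 and 52.4 against 26.7 and 13.8 CPM. Propranolol 2 was the lowest of the 4 libraries in both sums and in Ifng. No marker of either list was at 0 in all 4 libraries, and their part in the fall of Ifng or of the GTPase genes was not tested. In bulk samples fewer cells of a type and less RNA per cell cannot be told apart.

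Markers of the sorted cells themselves were abundant in every library. Adgre1, which encodes F4/80, was at 975 and 1010 CPM in the control and at 1150 and 1100 CPM in the propranolol libraries, and Itgam, which encodes CD11b, at 359 and 352 against 369 and 313 CPM. The sum of 12 macrophage markers was 23800 and 22900 against 29400 and 26600 CPM, led by Lyz2, with Csf1r higher (0.59 ± 0.09, edgeR adjusted p = 0.000624) and Ptprc, which encodes CD45, lower (-0.74 ± 0.09, adjusted p = 0.000301). Neither passed after the GC correction, where Csf1r was at 0.32 and Ptprc, at 39.4% GC, turned to 0.20, while Mrc1 came to pass at 0.85. The counts that follow stand against 15.6% lower and 12.2% higher among all tested genes. Of 7 dendritic cell markers 3 were lower, with sums of 33.0 and 32.6 against 20.4 and 18.5 CPM, led by Ccr7 (the lower ones were Xcr1, Clec9a and Cd209a). After the GC correction Clec9a passed, and Xcr1 (-0.67) and Cd209a (-0.59) did not. Of 8 fibroblast and tumor cell markers 6 were lower, with sums of 2850 and 1120 against 664 and 702 CPM, led by Col3a1 in the control and by Col1a1 in the propranolol libraries, and control 1 stood apart. Of 8 neutrophil markers, 5 were tested and 4 were higher, with sums of 145 and 178 against 304 and 321 CPM, led by Csf3r, while Ly6g and Camp were at 0 in control 1. The 5 B cell markers summed to 9.98 and 13.5 against 20.3 and 19.7 CPM, led by Cd79b. Ms4a1, which encodes CD20, went the other way, at 1.01 and 0.997 against 0.165 and 0.131 CPM (-2.67 ± 0.70, edgeR adjusted p = 0.0125), and neither it nor Cd79b passed after the GC correction. The 5 endothelial markers summed to 43.6 and 41.1 against 56.5 and 49.3 CPM, led by Pecam1. The part of these cells in the result was not tested.

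The genes outside the lists whose profile over the 4 libraries was most like the mean of the 10 genes included Dis3, Zfp961, Etaa1 and Tmem67. Likeness was the root mean square distance between log2 CPM values centred on each gene's own mean over 4 libraries, and it ranged from 0.00531 for Dis3 to 0.0240 for Tmem67. The mean of the 10 genes was 0.27 and 0.41 in control 1 and 2, and -0.22 and -0.46 in propranolol 1 and 2, and Dis3 had the same values to 2 decimals. Among the 10 genes themselves, Gbp5 (0.105) and Gbp2 (0.114) were nearest to their common mean and Iigp1 was farthest, at 0.602.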

How the data were processed

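RNA was measured by poly(A) RNA sequencing of sorted TAMs in 2 control and 2 propranolol libraries. The authors deposited raw counts of fragments per gene, 1 column per library, and all columns were matched to libraries by the descriptions in the labels, whose titles give group and replicate (0 columns not used). According to the methods and the submitters' processing notes, the authors aligned reads to mm10 with STAR 2.7.1a, kept alignments with a mapping quality above 30 with SAMtools 1.9 and counted exons with featureCounts 1.6.4. The GENCODE release and the strand option are not given in the sources used here, so reads of overlapping or antisense genes cannot be told apart.

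Genes were named from GENCODE M21 (GRCm38), which matched 54079 of 54146 genes. Counts were tested with edgeR 4.0.16 (quasi-likelihood test, TMM factors, filterByExpr with a minimum count of 10, which kept 14688 genes and all 10 members) in R 4.3.3. Genes were called changed at a Benjamini-Hochberg adjusted p under 0.05 over all tested genes and a change over 1.5-fold. CPM used TMM-scaled totals, and log2 CPM a prior count of 2. GC content was taken from the longest transcript of each gene (14681 tested genes), and the GC correction removed a natural spline with 5 degrees of freedom per library through offsets. Alternatives were DESeq2 1.42.0, limma-voom (limma 3.58.1), DESeq2 size factors, library totals, other filters, each library left out, the replicate number as a block and the GC correction.

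Library totals ran from 13798249 to 39818103, so a count of 3 is worth less in propranolol 1 than elsewhere, and counting error is larger for genes with few counts. The 2 libraries per group are described as biological replicates, and p-values measure the spread between these libraries only. With 2 libraries per group no exact permutation test can pass 0.05, and tests rest on the spread shared across genes.

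The 10 genes and all lists were chosen with earlier results of these data known. Genes named in the text were all 10 genes, every tested gene of the other IRG, other GBP and IFNγ signalling lists, the 3 highest and 3 lowest changed and the 3 most abundant genes of each other list, and the 5 genes of most similar profile. Of the genes this rule takes, 2 are not reported here. Stat4 and the cell type markers named singly were chosen after their values were seen. So were Casp4, Gsdme, Atg3 and Atg16l1, which were named because they passed after the GC correction. Promoter sequences are from RefSeq (GRCm38.p6).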

Additional observations from a re-analysis of the deposited data

How the results depend on the processing

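Of 125 comparisons of a main count or median with its value under an alternative, 99 stayed within 1.5 times or within the spread between libraries. With the GC correction, 1120 genes were higher and 731 lower (1179 and 942 with the replicate block added), 4 other IRG and GBP genes were changed in place of 9, 2 signalling genes in place of 4, and 4 other IFNγ targets in place of 8, the same 3 counts as with the block. The median of the 10 genes was -0.15 with the GC correction and -0.17 with the block added. With library totals the median of the 10 genes was -0.83, with 609 genes higher and 3497 lower and 5 other IFNγ targets changed. At a log2 fold change above 1.5, 61 genes were higher and 667 lower, 4 other IRG and GBP genes, 1 signalling gene and 1 other IFNγ target were changed, and 0 genes of the type I, vacuole and inflammasome lists, which had 9, 3 and 5 at 1.5-fold. Leaving out single libraries gave 2 (without propranolol 2) to 4 changed signalling genes and 1 (without control 1) to 4 vacuole genes. It moved the median of the 10 genes between -0.64 and -0.54. Here the lone library of a group is assumed to vary like the others.

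Whether libraries with the same replicate number were handled together is not given in the sources used here. Deviations of same-numbered libraries correlated at 0.169, which cannot decide this with only 2 pairs. With the replicate block 1867 genes were higher and 2495 lower, and the median of the 10 genes was -0.59. Of the genes taken by the naming rule, Ifi47 (-0.60) and Gm5431 (-0.59) came to pass, and no call was lost.

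Among the genes outside the 10 that the naming rule took, 46 values under alternatives changed sign. With the GC correction, and with the block added, the values were 0.06 and 0.07 for 9930111J21Rik1, -0.20 and -0.21 for Irgq, 0.23 and 0.24 for Gbp9, 0.10 and 0.10 for Jak1, -0.32 and -0.31 for Socs1, -0.17 and -0.16 for Socs3, 0.20 and 0.18 for Ptpn2, 0.34 and 0.35 for Pias1, 0.56 and 0.55 for Gm4070, -0.31 and -0.32 for Il12rb1, 0.06 and 0.06 for B2m, -0.04 and -0.04 for H2-Ab1, -0.03 and -0.03 for Sqstm1, and 0.01 for Gm12250 with the correction alone. With library totals they were -0.13 for Irgq, -0.22 for Irf2, -0.22 for Socs1, -0.07 for Socs3, -0.22 for Il12rb1, -0.06 for Il18bp, -0.01 for Sqstm1 and -0.07 for Zbp1. The stricter filter put Il12rb1 at -0.01, and no filter put Cd74 at 0.05. Without single libraries Irf2 ranged from -0.05 (control 2 or propranolol 1) to 0.16, Socs1 from -0.03 (control 1) to 0.16, Il12rb1 from -0.19 (propranolol 1; -0.10 without control 1) to 0.25, H2-Eb1 from -0.27 to 0.05 (propranolol 2), Gm4070 up to 0.02 and Cd74 up to 0.05 (both propranolol 2; Cd74 at 0.04 without control 2). Casp4, Itgam and Ptprc, which the naming rule did not take, also turned above 0 with the GC correction, at 0.80, 0.02 and 0.20. The cause of these changes was not tested. Of the 10 genes, all were below 0 by DESeq2's size factors, limma-voom, library totals, the stricter filter, the replicate block and without propranolol 1, 9 with no filter, without control 1 or without control 2, and 8 without propranolol 2 or with the GC correction, alone or with the block. The genes above 0 there were Irgm1, Irgm2 or Igtp.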

Other observations

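The machinery that acts with and after the GTPases was measured in the same fit. Of 12 inflammasome genes downstream of GBPs, all tested, 2 were higher and 3 lower by edgeR, against 12.2% and 15.6% of all tested genes, and the median of the list was 0.08. After the GC correction 5 were higher and 1 lower, against 7.63% and 4.98%. Casp1, the inflammatory caspase, was at 53.4 and 54.2 CPM in the control and at 26.1 and 15.3 CPM in the propranolol libraries (-1.35 ± 0.20, adjusted p = 0.000712), and remained lower after the GC correction, at -0.62. Aim2, a sensor of cytosolic DNA, was at 44.4 and 48.1 against 27.4 and 25 CPM (-0.82 ± 0.12, adjusted p = 0.00075), and Nlrc4 at 25.4 and 25.6 against 17.7 and 16.1 CPM (-0.59 ± 0.14, adjusted p = 0.0078). Both were inside the limits after the GC correction, at -0.25 and -0.27, and Nlrc4 also without control 1 (-0.54), control 2 (-0.57) or propranolol 2 (-0.50). Higher were Nlrp3 (0.84 ± 0.10, adjusted p = 0.000253) and its adaptor gene Pycard (0.83 ± 0.13, adjusted p = 0.000917), at 0.76 and 1.16 after the GC correction. The pore-forming Gsdmd was at 0.55 ± 0.10 (adjusted p = 0.0019), inside the fold limit, and passed without control 2 (0.64) or propranolol 2 (0.59). Il1b was at 302 and 285 against 385 and 394 CPM (0.41 ± 0.09, adjusted p = 0.00586), and passed after the GC correction at 0.69, as did Casp4 (-0.30 before and 0.80 after it) and Gsdme (0.08 and 1.10). Zbp1 was at 0.17 ± 0.11 (adjusted p = 0.232).

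Of 21 genes of vacuole targeting and prenylation, all tested, 1 was higher and 2 lower, 14.3% in all against 27.8% of all tested genes, with a median of 0.05. After the GC correction 2 were higher and 0 lower, against 7.63% and 4.98% of all tested genes. The 2 were Atg3 (0.04 before and 0.90 after it) and Atg16l1 (0.30 and 0.66). The autophagy conjugation genes Atg12 (-0.67 ± 0.14, adjusted p = 0.00358) and Atg5 (-0.66 ± 0.14, adjusted p = 0.00448), needed to place GTPases on vacuoles, were lower. Neither passed without control 1 (-0.53 and -0.50), without propranolol 2 (-0.54 and -0.53) or after the GC correction (-0.23 and -0.25). Atg7 rose by 0.59 ± 0.10 (adjusted p = 0.00153), but was at 0.39 and inside the fold limit after the correction. The genes most abundant on average over the 4 libraries, Rnf213 (0.36 ± 0.12, adjusted p = 0.0361), Ubb (0.47 ± 0.12, adjusted p = 0.00952) and Sqstm1 (0.23 ± 0.09, adjusted p = 0.0725), did not pass, Ubb passing at 0.66 without propranolol 2.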
